A study of Mus musculus with 39 samples.

Results

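The miR-17-92 cluster is a group of miRNAs cut from a single primary transcript. Its 6 main-strand products (mmu-miR-17, mmu-miR-18a, mmu-miR-19a, mmu-miR-19b, mmu-miR-20a and mmu-miR-92a, written below without the prefix for mouse) were taken by name from a mouse array that held 650 miRNAs, mostly of the mouse and otherwise viral, and all 6 were detected on all 39 arrays. The samples were mouse embryonic stem cells (ESCs) of the line TCL-1. They were kept undifferentiated on mitomycin C-treated mouse embryonic fibroblast feeders with LIF, or were freed of feeders, plated on collagen and cultured for 1, 3 or 5 days with Activin A at 100 ng/ml, with Wnt3a at 50 ng/ml, with the pair at these doses, or with no growth factor (control). All differentiating cultures, controls included, were in RPMI medium with B27 and an additive that the labels give as sodium butyrate. The 13 groups had 3 arrays each, and nothing in the labels says that the 3 came from separate cultures, so the p-values measure the spread between arrays, which may be technical. The cells were 1 line, and in such bulk RNA fewer cells of a type and less RNA per cell cannot be told apart.

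A primary transcript of this kind is trimmed in the nucleus to hairpins and then in the cytoplasm to mature strands of about the same length, and bases 2 to 8 of a mature strand, the seed, are the main guide to the mRNAs it binds. The cluster is best known as a target of the Myc factors and as an oncogenic miRNA cluster. Its miR-17 and miR-20a group acts on cell cycle regulators such as p21 and the E2F factors, and the miR-19 pair and miR-92a, with other seeds, act on sets of their own. Activin A signals through Smad2 and Smad3, Wnt3a through beta-catenin, and the pair is used to steer ESCs to definitive endoderm (DE), the layer that gives liver, pancreas and gut. Day 1, day 3 and day 5 stand for DE initiation, progression and maturation.

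The 6 mature sequences are shown because they fall into 4 seed groups and because near-identical pairs limit what the array can tell apart. They were matched by name to RefSeq (GRCm38.p6), each is written 5′ to 3′, and capitals mark the seed, bases 2 to 8.
miR-17: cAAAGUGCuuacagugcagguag
miR-20a: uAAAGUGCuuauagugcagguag
miR-18a: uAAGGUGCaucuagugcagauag
miR-19a: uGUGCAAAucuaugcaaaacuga
miR-19b: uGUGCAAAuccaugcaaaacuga
miR-92a: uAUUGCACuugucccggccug

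The 6 hairpins lie on the plus strand of chr14:115043671-115044506, 836 bases, in the order Mir17, Mir18, Mir19a, Mir20a, Mir19b-1 and Mir92-1. The RefSeq annotation has each hairpin as a miRNA gene of its own and the host lncRNA Mir17hg at chr14:115044390-115046728, which overlaps the hairpins from the end of Mir19b-1 on. The mature strand of miR-17 is at chr14:115043684-115043706 and that of miR-92a at chr14:115044476-115044496. Counting positions from 1 at the 5′ end, miR-19a differs from miR-19b by U11C, and miR-17 differs from miR-20a by C1U and C12U. The mature miR-19b and miR-92a are also encoded, letter for letter, by Mir19b-2 at chrX:52741991-52742013 and Mir92-2 at chrX:52741854-52741874, both on the minus strand, so their signals can come from either locus.

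The values are Agilent total gene signals, quantile normalized over the 39 arrays and put on the log2 scale. A difference is in log2 units with its standard error (SE) from limma, a linear model with moderated variances, and was called when the Benjamini-Hochberg adjusted p over all miRNAs tested was under 0.05. Between 183 and 375 miRNAs were detected per array, 143 on all 39, and no spot was saturated. The arrays lay on 5 slides, and the slide follows the groups in part. Quantile normalization gives each rank one fixed value, and among the brightest miRNAs the steps between ranks are wide: rank 2 stood at 12.89 and rank 13 at 10.74 on the log2 scale. For miR-19b, miR-20a and miR-92a, which held ranks 2 to 19, called differences are therefore given also after scaling each array to the 75th percentile of its signals over the 143 miRNAs detected everywhere. The deposited table of processed values carries, in 18 of 39 columns, the rank order of the scanner file of the other Activin A treatment (alone or with Wnt3a). The labels of the scanner files were used. If those were the ones exchanged, each value given here for Activin A alone belongs to the pair of factors and the reverse.

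All 6 members differed among the 13 groups (limma F-test, adjusted p from 2.5e-14 for miR-92a to 7.8e-04 for miR-19a), as did 88.5% of the 373 miRNAs tested. The plot of levels by group shows 2 kinds of course. miR-17, miR-18a and miR-19b were higher at day 3 than at day 1 in several treatments, while miR-92a went down with time in cells that had Activin A. The members did not move as a block: across the 13 group means Pearson's r was 0.91 between miR-17 and miR-18a, 0.94 between miR-18a and miR-19b, and from -0.16 to 0.33 between miR-92a and each of the other 5. These correlations describe 13 means that share normalization and slides, and carry no p.

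**Figure D1:**
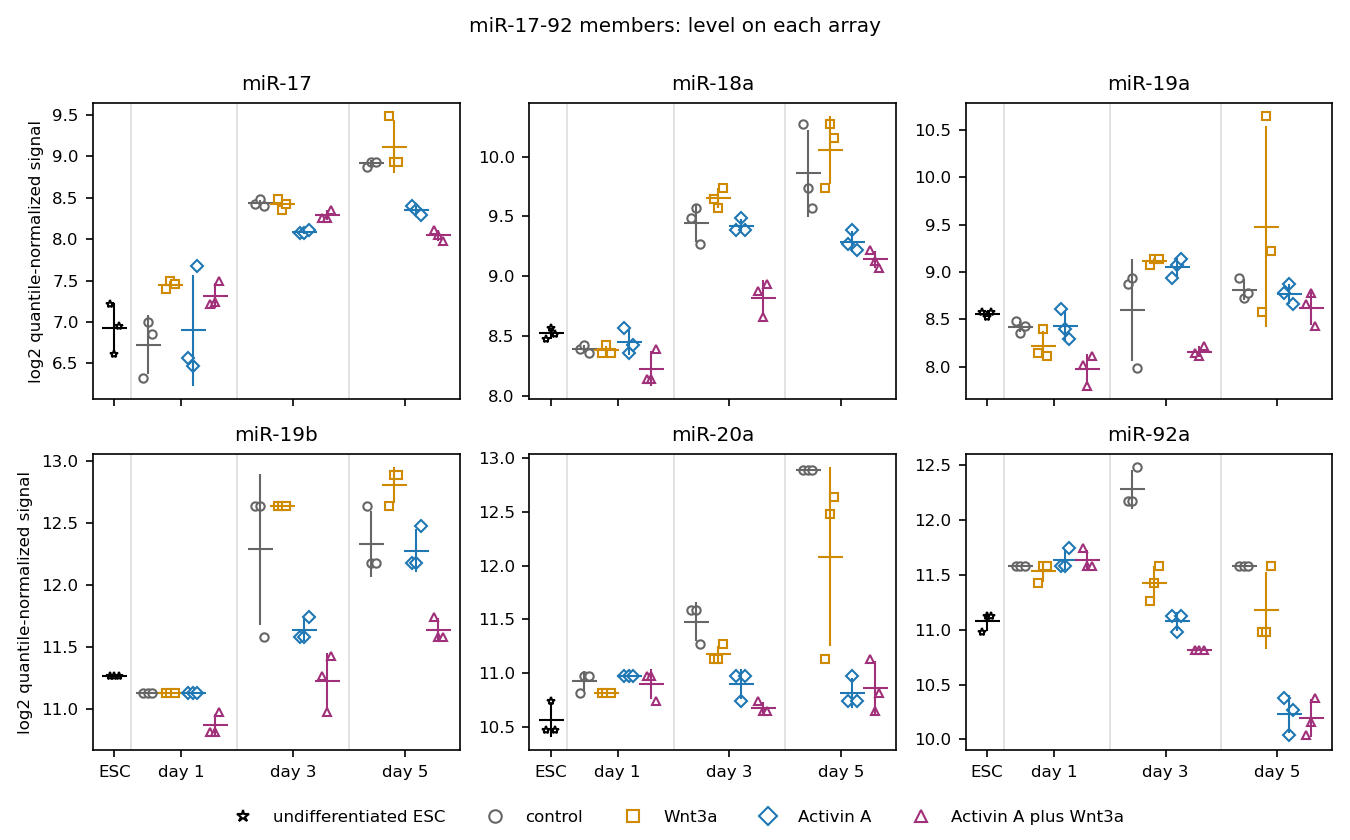
Level of each member on each array (log2 quantile-normalized signal, 3 arrays a group; bars are mean and SD). Points of one group on one line have the same rank and so the same value, as for miR-20a in the 3 control arrays at day 5, all at 12.89; the 6 Activin A-treated arrays of that day lie between 10.64 and 11.13.

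miR-92a was lower with Activin A, alone or with Wnt3a, at day 3 and at day 5 under every alternative that was run. It is the last product of the cluster and the only one with its seed. At day 3 its level was 12.18, 12.18 and 12.48 in control, 11.27, 11.43 and 11.59 with Wnt3a, 11.13, 10.98 and 11.13 with Activin A, and 10.81 on all 3 arrays with both. No treated array reached the lowest control. Against control Wnt3a gave -0.85 (SE 0.10, adjusted p = 2.0e-04). Activin A gave -1.20 (SE 0.10, adjusted p = 6.0e-06), and both factors gave -1.47 (SE 0.10, adjusted p = 1.3e-06). After 75th-percentile scaling these became -0.01, -0.53 and -0.71, so that the Wnt3a difference was no longer called (adjusted p = 0.93) and the other 2 were. As deposited, without normalization, the differences were 0.20, -0.22 and -0.51, so the direction with Wnt3a rests on the normalization.

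At day 5 miR-92a stood at 11.59 on all 3 control arrays, at 10.38, 10.04 and 10.27 with Activin A, and at 10.04, 10.16 and 10.38 with both. Neither Activin A group overlapped the control. The differences were -1.35 (SE 0.17, adjusted p = 1.8e-04) and -1.39 (SE 0.17, adjusted p = 1.1e-04), or -0.70 and -0.96 after 75th-percentile scaling, called in both cases. Its rank moved from 7 in control to between 16 and 19. The 3 Wnt3a arrays read 10.98, 10.98 and 11.59 and gave -0.41 (SE 0.17, adjusted p = 0.21).

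miR-20a carries the seed of miR-17 and is its nearest relative in the cluster. At day 3 it read 11.59, 11.59 and 11.27 in control, 10.98, 10.74 and 10.98 with Activin A, and 10.74, 10.64 and 10.64 with both, again without overlap. The differences of -0.58 (SE 0.10, adjusted p = 7.9e-04) and -0.80 (SE 0.10, adjusted p = 8.2e-05) were -0.45 and -0.63 after 75th-percentile scaling. At day 5 the gap widened. All 3 control arrays were at 12.89, the second rank of the array, against 10.74, 10.98 and 10.74 with Activin A (difference -2.08, SE 0.34, adjusted p = 0.0010) and 11.13, 10.64 and 10.81 with both (-2.03, SE 0.34, adjusted p = 0.0010). The size of this gap rests on the normalization: it was -0.82 and -1.13 after 75th-percentile scaling, called in both, and -0.38 and -0.83 in the signals as deposited. With the slide as a term of the fit the second difference, -1.91, was not called (adjusted p = 0.073). Wnt3a gave -0.30 (SE 0.10, adjusted p = 0.042) at day 3, which turned to 0.08 after 75th-percentile scaling and was called in 4 of the 12 fits that left out 1 array (-0.42 to -0.25), and at day 5 its arrays were far apart, at 11.13, 12.48 and 12.64.

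miR-17, the first product, was lower with Activin A, alone or with Wnt3a, at both days. Its day 3 levels were 8.43, 8.48 and 8.40 in control and 8.07, 8.07 and 8.11 with Activin A, a difference of -0.35 (SE 0.05, adjusted p = 2.1e-04). With both factors the arrays read 8.26, 8.26 and 8.36 and the difference was -0.14 (SE 0.05, adjusted p = 0.030), or 0.05 in the signals as deposited. After normexp background correction of the spot signals both turned positive, to 0.28 and 0.42, and neither was called. The second was called in 8 of the 12 fits that left out 1 array (-0.17 to -0.12), and was lost without control replicate 1 or 2 or without replicate 1 or 2 of the pair. At day 5 control was at 8.87, 8.94 and 8.94, Activin A at 8.40, 8.36 and 8.29, and both at 8.11, 8.05 and 7.98. The groups did not overlap, and the differences were -0.57 (SE 0.13, adjusted p = 0.0080) and -0.87 (SE 0.13, adjusted p = 5.6e-04). The first was lost after normexp correction (-0.24, adjusted p = 0.062) and the second with the slide as a term (-0.78, adjusted p = 0.060).

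miR-18a, alone in its seed group within the cluster, fell with both factors at day 3, from 9.49, 9.57 and 9.27 in control to 8.87, 8.66 and 8.94 (-0.62, SE 0.10, adjusted p = 3.2e-04). With Activin A alone it read 9.38, 9.49 and 9.38 (-0.02, SE 0.10). The first difference turned to 0.26 after normexp correction and was not called. At day 5 it was lower with Activin A (-0.57, SE 0.19, adjusted p = 0.040) and with both (-0.72, SE 0.19, adjusted p = 0.012), neither of which was called with the slide as a term. The first was called in 4 of the 12 fits that left out 1 array (-0.72 to -0.37), and leaving out any 1 of the 3 Activin A arrays lost it.

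The miR-19 pair, which differs by the single base above, binds through a seed that no other member has. miR-19a was not called against control at day 3 or day 5 with any factor. At day 3 Wnt3a gave 0.51 (adjusted p = 0.085), Activin A 0.45 (adjusted p = 0.098) and both -0.44 (adjusted p = 0.099), each with an SE of 0.21. The 3 control arrays read 8.87, 8.94 and 7.98, and without the third, control day 3 replicate 3, the values became 0.21 (adjusted p = 0.040), 0.14 (adjusted p = 0.090) and -0.75 (adjusted p = 1.3e-05). At day 5 the 95% interval of its difference with both factors ran from -1.15 to 0.76, which takes in the change of miR-17. miR-19b fell with both factors, from 12.64, 12.64 and 11.59 to 11.27, 10.98 and 11.43 at day 3 (-1.07, SE 0.25, adjusted p = 0.0046) and from 12.64, 12.18 and 12.18 to 11.75, 11.59 and 11.59 at day 5 (-0.69, SE 0.15, adjusted p = 0.0036). After 75th-percentile scaling these were -0.51, still called, and -0.39 (adjusted p = 0.058). With Activin A alone miR-19b read 11.59, 11.59 and 11.75 at day 3 (-0.65, SE 0.25, adjusted p = 0.051), or -1.01 (adjusted p = 1.0e-04) without control day 3 replicate 3, whose 11.59 lay apart from the 12.64 of the other 2. That direction rests on the normalization, since the difference turned to 0.08 (adjusted p = 0.58) after 75th-percentile scaling and to 0.39 in the signals as deposited. It was at 12.18, 12.18 and 12.48 at day 5, within the range of the control (-0.05, SE 0.15).

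**Figure D2:**
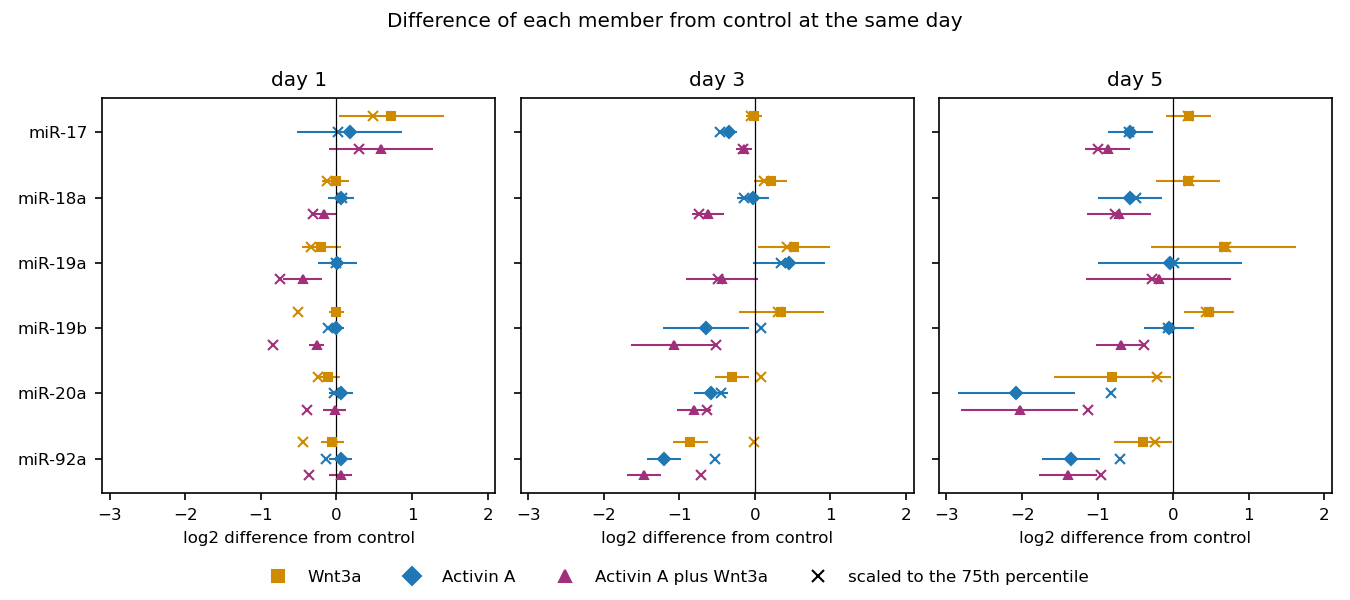
Difference of each member from control of the same day, in log2 units: filled symbols with 95% intervals are quantile-normalized values, crosses the same comparison after scaling to the 75th percentile. At day 5 both Activin A symbols of miR-20a stand near -2 (-2.08 and -2.03) and their crosses at -0.82 and -1.13, whereas symbol and cross of miR-17 nearly coincide with Activin A (-0.57 and -0.58).

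In counts, 3 of 6 members were down-regulated with Activin A at day 3, where 31% of the 326 miRNAs tested were called lower, and 5 of 6 with both factors, where 32.5% were. All 3 day 3 arrays with both factors were on slide 4, scanned in the second session, and every other day 3 array was on slide 1 or 2 in the first, so that this treatment and the slide cannot be told apart at day 3. Of the called members, 1 (miR-92a) and 2 (miR-19b and miR-92a) were past 2-fold, against 6.44% and 7.36% of all. With Wnt3a alone it was 2 of 6 (miR-20a and miR-92a), against 19.3%. At day 5 it was 4 of 6 with Activin A, against 19.3% of 368 miRNAs, and 5 of 6 with both, against 24.7%. miR-20a and miR-92a were past 2-fold in each, against 11.4% and 14.9% of all. With Wnt3a alone no member was called at day 5, where 8.15% of all were called in either direction, although limma's unadjusted p was under 0.05 for 3 members (the methods' t-test gave 0). The median difference of the 6 members at day 5 was -0.57 with Activin A and -0.79 with both, beside -0.03 and 0.00 over all miRNAs tested. Both Activin A comparisons use the same control arrays. At day 5 every control array was on slide 4, whereas slide 3 held every array of the pair and of Wnt3a. Activin A was split, its replicates 1 and 2 on slide 4 and its replicate 3 on slide 3. Slide and treatment can therefore be told apart at day 5 only through that last array, on which the slide term rests. The median over the 143 miRNAs detected everywhere was itself shifted at day 5, by 0.14 and 0.23, and by 0.02 and 0.08 after 75th-percentile scaling.

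At day 1 the number of called differences depended on the scaling: 2 of the 18 comparisons of a member with control were called, and 8 after 75th-percentile scaling, among them miR-19b with Wnt3a (-0.51, adjusted p = 0.0077) and with both factors (-0.84, adjusted p = 6.3e-04). In the quantile-normalized values no member was called with Activin A (3.33% of 240 miRNAs were, in either direction; unadjusted limma p was under 0.05 for 0 members, and the methods' t-test called 0) or with Wnt3a (20% were; unadjusted p was under 0.05 for 1 member, miR-17, and the methods' t-test called 0 after adjustment). With both factors the miR-19 pair was called lower, 2 of 6 against 12.5%: miR-19a by -0.45 (SE 0.11, adjusted p = 0.020) and miR-19b by -0.26 (SE 0.04, adjusted p = 0.0033). The 3 arrays with both factors were on slide 1 and the control arrays on slide 5, and neither call held with the slide as a term (adjusted p = 0.61 and 0.13). miR-19a turned to 0.21 after normexp correction, and its call was lost on leaving out replicate 2 with both factors or control replicate 1 or 3. The 2 probes of miR-19b went opposite ways at day 1 in the signals as deposited. With both factors the brighter gave -0.31 and the dimmer 0.07, and with Wnt3a they gave -0.02 and 0.37.

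Markers of cell types moved with the same contrasts. The 11 embryonic stem cell miRNAs of the miR-290 to miR-295 set, 10 of them detected on all 3 arrays of each day 5 group named here, held 8.09 to 8.51% of the summed detected signal in control at day 5, against 23.0 to 23.9% with Activin A and 26.7 to 28.5% with both. At day 3 it was 18.3 to 19.6% against 32.6 to 33.3% and 33.2 to 34.0%. Of the 11, miR-291b-3p was not detected in any of these groups. At day 5 the 4 neural miRNAs (miR-124, miR-9, miR-9* and miR-219) held 1.04 to 1.33% in control and at most 0.125% in the Activin A groups. The 8 epithelial and gut miRNAs held 0.201 to 0.202% in control at day 5 and 1.61 to 1.73% in the Activin A groups of that day. Of the 8, miR-192 and miR-194 were not detected in any group, and miR-375 was not detected in control at day 5. The part of these cell types in the fall of the cluster was not tested.

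Adding Wnt3a to Activin A was compared directly, the comparison that bears on cooperation between the factors. At day 3 miR-18a (-0.60, SE 0.10, adjusted p = 0.0019) and miR-19a (-0.89, SE 0.21, adjusted p = 0.012) were lower with both factors than with Activin A alone, 2 of 6 against 14.4% of all, and miR-17 was higher (0.21, SE 0.05, adjusted p = 0.012), 1 of 6 against 15%. The miR-19a arrays did not overlap: 8.94, 9.07 and 9.13 with Activin A, 8.15, 8.11 and 8.22 with both. At day 1 the miR-19 pair was lower (miR-19a -0.46, SE 0.11, adjusted p = 0.038; miR-19b -0.26, SE 0.04, adjusted p = 0.0071), 2 of 6 against 4.58%, and for miR-19b the difference was -0.72 (adjusted p = 0.0034) after 75th-percentile scaling. With the slide as a term neither of the pair was called (adjusted p = 0.45 and 0.083), and the miR-19a call held in 4 of the 12 fits that left out 1 array (-0.53 to -0.36). At day 5 only miR-19b was lower (-0.64, SE 0.15, adjusted p = 0.038), 1 of 6 against 1.36%, and not after 75th-percentile scaling (-0.32, adjusted p = 0.32). That call held in 5 of the 12 fits that left out 1 array (-0.71 to -0.55). The day 3 arrays with both factors were on slide 4 and scanned in a second session, those with Activin A on slide 2 in the first, so factor and slide cannot be told apart there.

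The interaction term, the effect of both factors beyond the sum of their single effects, was called at day 3 for miR-18a (-0.80, SE 0.14, adjusted p = 0.0037) and miR-19a (-1.40, SE 0.30, adjusted p = 0.011), 2 of 6 lower against 11.3%. It was higher for miR-17 (0.22, SE 0.07, adjusted p = 0.046) and miR-92a (0.59, SE 0.14, adjusted p = 0.019), 2 of 6 against 11.3%. These terms, too, rest on the day 3 arrays of slide 4 and cannot be told apart from it. The miR-92a term turned to -0.17 after 75th-percentile scaling, and the miR-17 term was called in 3 of the 12 fits that left out 1 array (0.18 to 0.25). For miR-18a the single-factor differences from control were 0.21 with Wnt3a and -0.02 with Activin A, beside -0.62 with both. At day 5 the term was called for miR-19b (-1.12, SE 0.21, adjusted p = 0.026), 1 of 6 against 1.63%, was lost after 75th-percentile scaling (-0.75, adjusted p = 0.069), and was called in 6 of the 12 fits that left out 1 array (-1.29 to -1.03). At day 1 limma called 0 of 240 miRNAs (0%). There the unadjusted p was under 0.05 for 14 of all miRNAs and for 1 member, miR-19b. After normexp correction no interaction of a member was called at any day.

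The course over time in control cells answers what differentiation without growth factor did. From undifferentiated ESCs to day 1 only miR-92a was called, higher by 0.51 (SE 0.12, adjusted p = 0.0014), 1 of 6 against 17.4% of 373. Its levels were 10.98, 11.13 and 11.13 in ESCs and 11.59 on all 3 day 1 arrays, and the rise was 0.84 after 75th-percentile scaling. From day 1 to day 3, 5 of 6 were higher, against 41.8% of all: miR-17 by 1.71 (SE 0.20), miR-19b by 1.16 (SE 0.17), miR-18a by 1.05 (SE 0.13), miR-92a by 0.69 (SE 0.12) and miR-20a by 0.56 (SE 0.21). The rise of miR-92a turned to -0.27 after 75th-percentile scaling, that of miR-19b shrank to 0.54, and that of miR-20a was 0.60. With the slide as a term neither miR-92a nor miR-20a was called. The miR-20a call was also lost after normexp correction and with the percentile of all miRNAs, as was that of miR-19b with the latter. It held in 3 of the 6 fits that left out 1 array (0.50 to 0.66 for miR-20a). From day 3 to day 5, 2 were higher, against 20.6%, miR-18a by 0.42 (SE 0.13) and miR-20a by 1.41 (SE 0.21), and miR-92a was lower by -0.69 (SE 0.12), against 20.9%. After 75th-percentile scaling miR-92a moved by -0.30 (adjusted p = 0.046), miR-20a by 0.36 (adjusted p = 0.066) and miR-18a by 0.27 (adjusted p = 0.073). As deposited, the brighter of the 2 miR-92a probes gave -0.37 over this step and the dimmer 0.16. Scaled to the 75th percentile of all miRNAs miR-18a turned to -0.03, and its call was lost without control day 3 replicate 3 or control day 5 replicate 1 (0.21 to 0.57 over the fits that left out 1 of the 6 arrays).

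In treated cells miR-17 and miR-18a rose from day 1 to day 3 in all 3 treatments, by 0.97 to 1.19 and by 0.59 to 1.27. With Wnt3a 4 of 6 were higher (miR-19a by 0.89 and miR-19b by 1.51 as well), against 37.8% of all, with Activin A 3 of 6 (miR-19b by 0.51 as well), against 37.3%, and with both 2 of 6, against 36.5%. miR-92a went the other way with Activin A (-0.56, SE 0.12) and with both (-0.82, SE 0.12), 1 of 6 in each, where 20.9% of all were called lower in each. The scaled values were -0.65 and -0.62, and those of the miR-19b rise 1.35 with Wnt3a and 0.74 with Activin A. From day 3 to day 5 miR-92a fell again, by -0.85 (SE 0.12) with Activin A, 1 of 6 against 8.58%, and by -0.62 (SE 0.12) with both, 1 of 6 against 7.77%, or by -0.47 and -0.55 after scaling. Over the same step miR-19b rose with Activin A by 0.64 (1 of 6, against 6.97%), which turned to -0.24 after 75th-percentile scaling. With Wnt3a miR-17 rose by 0.70, miR-18a by 0.40 and miR-20a by 0.91 (3 of 6, against 20.4%), and the miR-20a rise fell to 0.07 after 75th-percentile scaling. Without Wnt3a day 5 replicate 1 that rise was 1.39, and it was 0.64 to 0.97 without any other 1 of the 6 arrays. The 6 fibroblast feeder miRNAs held 0.359 to 0.407% of the detected signal in ESCs, 0.745 to 0.830% at day 1 and at most 0.121% at days 3 and 5. Of the 6, miR-145 was not detected in ESCs or at day 1, and miR-143 was not detected in ESCs. The part of these 6 miRNAs in the change from day 1 to day 3 was not tested.

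The early level of miR-17 followed the slide. As deposited its total signal was 38.7 to 68.0 in ESCs and 33.4 to 68.8 in control at day 1, all on slide 5. On slide 1 it was 93.2 to 131 with Wnt3a and 87.1 to 115 with both factors. Activin A at day 1 was split: its replicates 1 and 2 on slide 5 read 54.5 and 37.0, and its replicate 3 on slide 1 read 119. On either slide the groups overlapped. Control at day 3, with 1 array on slide 1 (369) and 2 on slide 2 (388 and 353), was above all of these. With the slide as a term the rise of miR-17 in control from day 1 to day 3 was 0.54 (adjusted p = 0.14) in place of 1.71, and with Activin A 0.40 (adjusted p = 0.33) in place of 1.19. With Wnt3a it stayed at 0.96 (adjusted p = 0.0042).

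**Figure D3:**
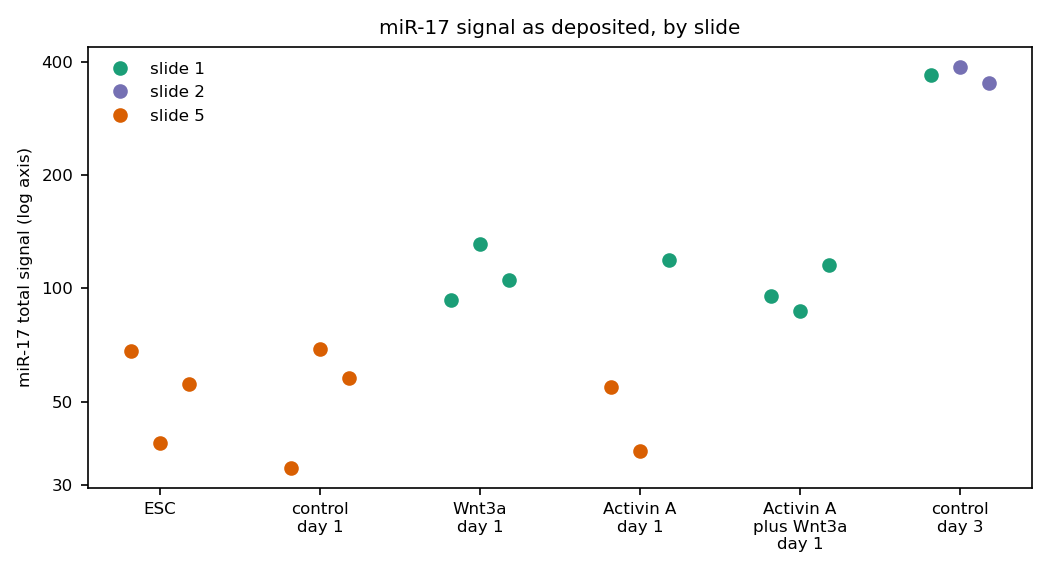
miR-17 total signal as deposited (log axis), 1 point per array, coloured by slide. The 8 arrays on slide 5 lie between 33.4 and 68.8, the 7 day 1 arrays on slide 1 between 87.1 and 131, and the 3 control arrays of day 3 between 353 and 388.

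Each member was read by 2 probes, which gave an internal check that no normalization enters. Over 72 pairs of differences (6 members, 9 comparisons with control and 3 time steps) the probes of a member differed by a median of 0.06 log2 units. Among the 54 pairs with a difference over 0.25, 51 had the same direction. The widest gap, 0.53, was in miR-92a, where the brighter probe gave -0.37 and the dimmer 0.16 for control day 5 against day 3. The pairs of opposite direction also included miR-19b at day 1, with both factors (-0.31 and 0.07) and with Wnt3a (-0.02 and 0.37).

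To set members against each other without normalization, the log2 signal of each was taken relative to the mean of the other 5 on the same array. Only changes of such a value have meaning, since probes differ in brightness. For miR-92a it was 2.41 to 2.98 on the 12 arrays of day 1, 1.23 to 2.01 on those of day 3 and 0.24 to 1.21 on those of day 5. The days did not overlap, whatever the treatment. ESCs, at 1.91 to 2.26, lay below day 1 and overlapped the top of the day 3 range. miR-18a went the other way, from -1.54 to -1.28 at day 1 to -1.23 to -0.81 at day 3 and -0.85 to -0.72 at day 5. miR-17 rose from a median of -2.63 at day 1 to -2.31 at day 3 and -1.90 at day 5. miR-19a and miR-20a had overlapping ranges on all 3 days. In the summed signal of its probes, the ratio of miR-92a to the other products was thus lower at each later day. The size of the steps depends on the probe. In control the brighter and dimmer miR-92a probes gave 0.80 and 1.24 from day 1 to day 3. From day 3 to day 5 they gave -0.37 and 0.16. Days lay mostly on different slides. On slide 4, which held both, the 3 day 3 arrays read 1.36 to 1.59 for miR-92a and the 5 day 5 arrays 0.78 to 1.21. Those of day 3 all had both factors and those of day 5 had Activin A alone or none. Day and treatment therefore cannot be told apart on that slide.

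**Figure D4:**
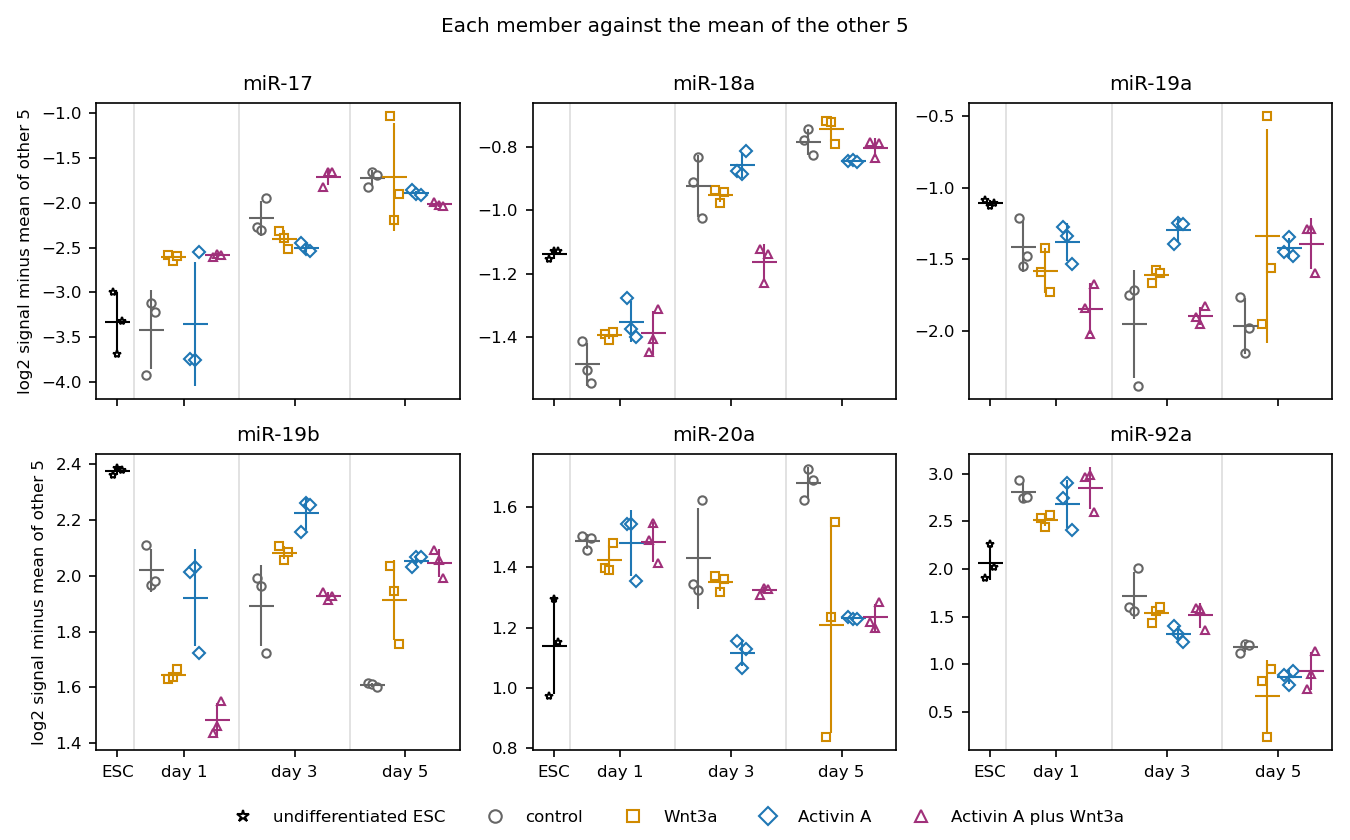
Each member relative to the other 5 (log2 signal as deposited minus the mean log2 signal of the other 5, 3 arrays a group; bars are mean and SD). In the miR-92a panel the arrays of day 1 (2.41 to 2.98), day 3 (1.23 to 2.01) and day 5 (0.24 to 1.21) form separate bands; the offset between panels is that of the probes.

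The same values asked whether Activin A shifted single members within the cluster. None of 18 tests (6 members, 3 days; exact two-sided permutation within Wnt3a status, 400 arrangements, smallest p possible 0.0050) was past 0.05 after adjustment over the 18. A lone shift could not have passed that adjustment even at the smallest p possible, so the count cannot decide for a single member. The lowest raw p values were 0.010 for miR-19b (0.29 higher with Activin A at day 5, adjusted p = 0.090), and 0.015 for miR-20a at day 3 (-0.17) and miR-18a at day 5 (-0.06), with the same adjusted p. Relative to the mean of the 143 miRNAs detected everywhere, 10 of the 18 were past 0.05. These tests, too, set the 6 arrays with Activin A, alone or with Wnt3a, against the 6 without, control and Wnt3a. All 6 members were lower with Activin A at day 5, by -0.61 (miR-19b) to -1.04 (miR-17), each with an exact permutation p of at most 0.010 and adjusted p of at most 0.020. At day 3 miR-92a (-0.65), miR-20a (-0.62), miR-18a (-0.53) and miR-17 (-0.32) were. At day 1 no member was. Against control alone at day 5, in the quantile-normalized values above, miR-19a was not called and miR-19b was called only with both factors.

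Of the other strands of the hairpins, 5 were on the array: miR-17* was detected on all 39 arrays, miR-20a* on 36, miR-18a* on 33, miR-92a* on 11 and miR-19a* on 1. At day 5 miR-17* was lower with Activin A (-0.58, SE 0.09, adjusted p = 8.4e-04) and with both (-0.77, SE 0.09, adjusted p = 1.1e-04), beside -0.57 and -0.87 for miR-17. miR-18a* was lower by -0.61 and -0.90 (SE 0.08), and miR-20a* by -0.99 (SE 0.30, adjusted p = 0.025) with both. Of these 3, 2 were called lower with Activin A at day 5, against 19.3% of all miRNAs tested, and 3 with both, against 24.7%. At day 3 it was 2 of 3 in each, miR-18a* and miR-20a*, against 31% and 32.5%, with miR-17* at -0.18 (adjusted p = 0.17) and -0.16 (adjusted p = 0.19). All 4 differences of each of the 3 stayed below 0 after 75th-percentile scaling. miR-92a* was also called lower at day 3 but was detected on 2 of 3 control arrays, 0 of 3 with Activin A and 1 of 3 with both, so that it passed the filter through the groups where it was high, and at day 5 it was detected on 0 control arrays.

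The paralogous clusters carry members of the same seed families. Of the 7 listed, 6 were measured, all on 39 of 39 arrays: miR-18b, miR-20b and miR-363 from the X-chromosomal cluster, and miR-106b, miR-93 and miR-25 from the cluster on chromosome 5. miR-106a, which differs from miR-17 by U10A alone, was not analysed here. Whether the miR-17 signal takes in some of it was not tested. At day 3, 4 of 6 were lower with Activin A, against 31% of all, and 4 of 6 with both, against 32.5%. miR-20b, which differs from miR-17 by U10C and C12U, changed most, by -1.11 and -1.16 (SE 0.06), or -0.37 and -0.60 after 75th-percentile scaling. At day 5 miR-93 (-1.07, SE 0.20, adjusted p = 0.0024) and miR-25 (-1.01, SE 0.23, adjusted p = 0.0076) were lower with Activin A, 2 of 6 against 19.3%, and both again with Wnt3a added, beside miR-20b, 3 of 6 against 24.7%. After 75th-percentile scaling miR-93 and miR-25 stood at -0.73 and -0.62 with Activin A. The median of the 6 at day 5 was -0.61 with Activin A and -0.49 with both.

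Of 9 other miRNAs with the seed of a member, 5 carry that of miR-92a. The sequences of 3 of them are given for comparison, capitals again marking bases 2 to 8.
miR-25: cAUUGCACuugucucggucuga
miR-363: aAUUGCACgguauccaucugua
miR-367: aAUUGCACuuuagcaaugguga

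miR-367, a product of the miR-302-367 cluster, lies at chr3:127545779-127545800 on the plus strand. It was higher with Activin A than in control at day 3 (1.09, SE 0.24, adjusted p = 0.0034) and day 5 (2.46, SE 0.39, adjusted p = 8.2e-04), and with both factors (0.88 and 2.28), where miR-92a was lower. After 75th-percentile scaling its Activin A differences were 1.26 and 2.67. At day 1 it was lower with Activin A (-0.86, SE 0.18, adjusted p = 0.032). miR-32 (chr4:56895272-56895293, minus strand) was also called higher at day 3, by 2.53 with Activin A, but it was near the floor, being detected on 0 of 3 control arrays, and passed the filter through the groups where it was high. miR-25 fell at both days with Activin A, and miR-363 at day 3 (-0.38, SE 0.05, adjusted p = 1.1e-04). Leaving aside miR-32, miR-367 was the only 1 of the 9 called higher with Activin A at day 3, where 25.5% of all miRNAs tested were. Of the 9, 4 were called lower there, against 31%. At day 5 it was 1 higher, against 18.2%, and 2 lower, against 19.3%.

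**Figure D5:**
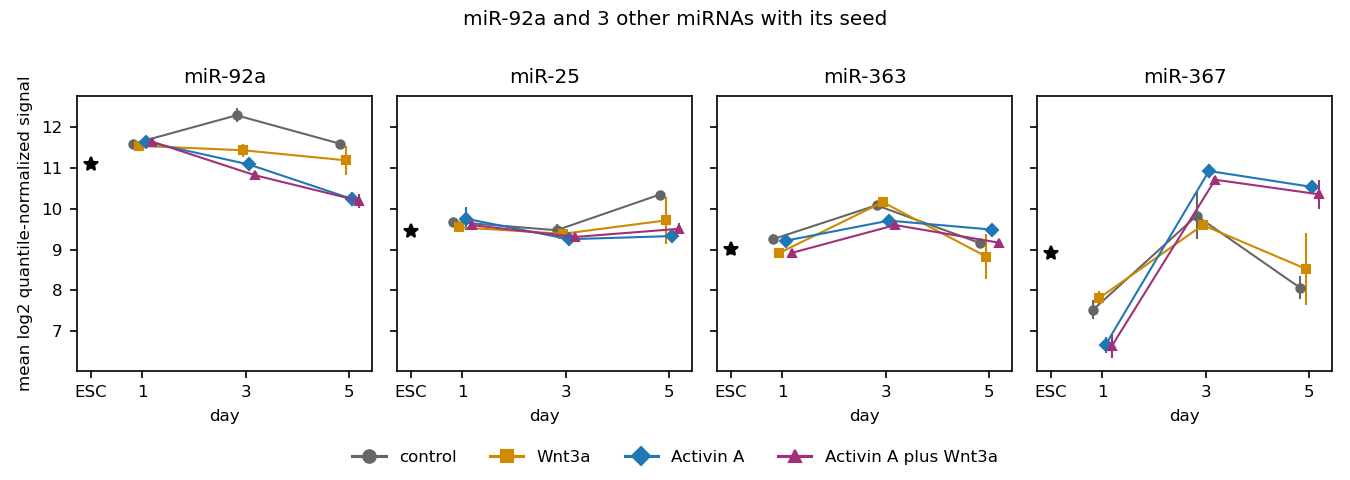
Mean level (log2 quantile-normalized signal, n = 3, bars are SD) of miR-92a and 3 other miRNAs with its seed, by day and treatment. With Activin A miR-92a stood at 11.64, 11.08 and 10.23 at days 1, 3 and 5, and miR-367 at 6.67, 10.92 and 10.53.

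By likeness of the 13 group means among the 137 other miRNAs detected on all arrays, miR-500 was nearest to miR-17 (r = 0.94), miR-18a (r = 0.96) and miR-19b (r = 0.91), and miR-17* was second for each. miR-106b was nearest to miR-19a (r = 0.82), miR-130b (r = 0.95) and then miR-93 (r = 0.94) to miR-20a. For miR-92a the nearest was miR-709 (r = 0.81).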

How the data were processed

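Total RNA from 39 samples was labelled with Cy3 and hybridised to 1-colour Agilent mouse miRNA arrays. Each deposited scanner file held background-subtracted intensity per spot, probe and gene from Agilent Feature Extraction (9.5.3.1 per the labels, 10.7.3.1 per the file headers). The authors also deposited a table of normalized log2 values, used only as an alternative (medians 0.026 to 0.779 per column; centring not stated). Total gene signals were quantile normalized over 39 arrays, floored at 2 and put on the log2 scale. miRNAs detected on at least 2 of 3 arrays of a group entered the fit: 240 at day 1, 326 at day 3, 368 at day 5 (12 arrays each) and 373 over all 39 arrays, the last for time steps and the F-test. limma 3.58.1 (R 4.3.3) gave differences and Benjamini-Hochberg adjusted p-values, tested on simulated data first. Within-cluster values used exact permutation.

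Members, lists and tests were chosen with earlier results of these data known. Named miRNAs were the 6 members, their other strands, the paralogous clusters, miRNAs of the same seed, and the 3 with the most alike group means. The replicate numbers do not pair the arrays: deviations of same-numbered arrays correlated between -0.50 and 0.41 (median -0.03, 54 pairs, 143 miRNAs). Alternatives covered scaling, background, floor, filter, test, slide, block and omission of each array. The number of arrays limits the precision.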

Additional observations from a re-analysis of the deposited data

Results flagged for a closer look

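In the fit over 39 arrays the difference of a treatment from control was not the same on successive days for 4 members (limma, difference of differences, adjusted over 373 miRNAs). For miR-92a it was lower at day 3 than at day 1 by -1.25 (SE 0.17, adjusted p = 1.8e-06) with Activin A, by -1.52 (SE 0.17, adjusted p = 4.7e-08) with both factors and by -0.80 (SE 0.17, adjusted p = 0.0025) with Wnt3a. After 75th-percentile scaling these were -0.39, -0.35 and 0.43, none of them called. For miR-20a it was lower at day 5 than at day 3 by -1.49 (SE 0.30, adjusted p = 4.4e-04) with Activin A and by -1.23 (SE 0.30, adjusted p = 0.0023) with both, which became -0.37 and -0.50, not called. miR-18a changed over the same days by -0.54 (SE 0.18, adjusted p = 0.030) with Activin A, or -0.36 (not called) after that scaling. miR-19b with both factors was lower at day 3 than at day 1 by -0.81 (SE 0.24, adjusted p = 0.015) and turned to 0.33. All 7 thus depended on the normalization.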

How the results depend on the processing

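Of 58 called differences of members, 47 kept direction and call after scaling to the 75th percentile of miRNAs detected everywhere, 36 with that of all miRNAs, 23 after normexp correction, 53 in the deposited table with columns matched to arrays, 19 of 35 with the slide as a term, and 58 with quantile normalization of log2 signals or a floor of 8. Of 540 such values without 1 array, 479 kept them, 61 lost the call and 0 turned. The 6 F-tests kept 5 or 6 calls. The cause of each change was not tested.

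Calls against control at day 1 (2) became 8 with the detected-miRNA percentile, 1 with that of all, with no filter, with the methods' plain tests, with all 39 arrays in the fit or with the slide as a random block (added after seeing the data), and 0 after normexp correction or with the slide as a term. Normexp correction gave 5 at day 3 (main value 10), 0 for the pair against Activin A (6), 0 interactions (5) and 6 time steps in treated cells (17). The slide term gave 5 at day 5 (9). The pair against Activin A gave 10 with the detected-miRNA percentile and 3 with all 39 arrays. The matched table gave 2 interactions, and the within-cluster count of 0 became 10 against the mean of all detected miRNAs. Without 1 array each, the counts were 1 to 4 at day 1 (1 without replicate 2 of the pair or control replicate 1 or 3, 4 without Activin A replicate 3), 8 to 13 at day 3, 8 to 11 at day 5, 5 to 9 for the pair against Activin A, 4 to 6 interactions, 8 to 10 time steps in control, 16 to 21 in treated cells, and 0 within the cluster.

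With the replicate block, although the numbers do not pair the arrays, 7 calls were lost and the interactions numbered 3.

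Directions turned as follows. Normexp correction: against control, 0.21 for miR-19a at day 1 and, at day 3, 0.28 for miR-17 with Activin A, 0.42 for miR-17 and 0.26 for miR-18a with both. Detected-miRNA percentile: 0.076 for miR-20a with Wnt3a at day 3, -0.17 for the miR-92a interaction, -0.27 for miR-92a in control from day 1 to day 3 and -0.24 for miR-19b with Activin A from day 3 to day 5. All-miRNA percentile: -0.23, -0.64 and -0.45 for the last 3, -0.027 for miR-18a in control and -0.11 for miR-20a with Wnt3a from day 3 to day 5. The deposited table with columns as named exchanges the treatments: at day 1 against control miR-19b was 0 and miR-19a 0.026; for the pair against Activin A miR-19b was 0.28 and miR-19a 0.46 at day 1, miR-18a 0.60, miR-17 -0.18 and miR-19a 0.93 at day 3, and miR-19b 0.48 at day 5; the day 3 interactions were 0.41, -0.17 and 0.42 for miR-18a, miR-17 and miR-19a. The slide term could not be fitted for the pair at day 3, its interaction, the F-test and most steps from day 3 to day 5.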
